A study of Mus musculus with 6 samples.

Results

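The acetylation of histone H3 at lysine 27 (H3K27ac) was compared gene by gene between A9 cells cultured with interferon gamma (IFN-γ) and A9 cells cultured with the vehicle, DMSO. A9 is a metastatic mouse line, described as clones of the TC1 lung tumour model, and it expresses little MHC class I. Cells received 1% DMSO, IFN-γ (5.83 fmol) or curcuphenol (0.00167 µmol, a sesquiterpene phenol) for 48 h, and chromatin of 130000 live cells was used per treatment. Every treatment was sequenced as 1 H3K27ac library with 1 input library, so nothing here has a replicate and no test was possible. Differences are differences between these libraries.

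The deposited data were lists of called regions, which are stretches of the genome with more H3K27ac fragments than the matched input. The DMSO list held 47899 regions over 69.8 Mb and the IFN-γ list 55622 regions over 81.1 Mb. The lists carry no score and no read count, so the depth behind them is unknown. For each gene with a curated RefSeq transcript in GRCm38.p6, the assembly that mm10 names, the window was the gene body plus the 1000 bp upstream of it. The covered length is the number of base pairs of that window lying inside called regions. Of 26182 genes, 14828 (56.6%) had a region in the DMSO list, the IFN-γ list or both. A gene was counted as gained when its covered length was larger with IFN-γ by at least 1000 bp and at least 2-fold, and as lost in the mirror case. Covered length says how far a called domain extends, not how strongly it is acetylated. The curcuphenol list (48763 regions over 70.3 Mb) is quoted beside the others as a further library, and any difference from DMSO that it shows shares the DMSO library with the IFN-γ comparison.

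IFN-γ binds a receptor whose JAK kinases activate transcription factors that bind gamma-activated sites (GAS), and the interferon regulatory factors that follow bind interferon-stimulated response elements (ISRE). The genes reached in this way encode GTPases that attack intracellular pathogens, the machinery that loads peptides on MHC molecules, chemokines and antiviral proteins. H3K27ac is placed by the acetyltransferases p300 and CBP at active promoters and enhancers, and it can extend from the promoter over the body of a strongly induced gene.

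The promoters of the 4 genes with the largest gain in covered share of the window are shown first, because all 4 encode immunity-related GTPases and all 4 hold both motifs within 300 bases. The motifs were searched on both strands, GAAANNGAAA for the ISRE and TTCNNNGAA for the GAS, where N is any base. The sequences are from RefSeq (GRCm38.p6), run 5′ to 3′ on the strand of the gene from 250 bases before the start site to 50 bases from it, and carry the matches in capitals. They lie at chr11:49064163-49064462 (minus strand, Tgtp2), chr11:48992197-48992496 (minus strand, Tgtp1), chr11:58199306-58199605 (plus strand, Igtp) and chr11:58183593-58183892 (plus strand, Gm12250, also known as Irgb10).
Tgtp2: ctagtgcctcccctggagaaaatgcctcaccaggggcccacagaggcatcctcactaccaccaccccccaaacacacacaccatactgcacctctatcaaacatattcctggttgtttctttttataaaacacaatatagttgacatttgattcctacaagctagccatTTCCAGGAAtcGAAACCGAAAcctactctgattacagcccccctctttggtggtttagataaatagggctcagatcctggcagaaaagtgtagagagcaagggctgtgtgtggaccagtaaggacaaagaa
Tgtp1: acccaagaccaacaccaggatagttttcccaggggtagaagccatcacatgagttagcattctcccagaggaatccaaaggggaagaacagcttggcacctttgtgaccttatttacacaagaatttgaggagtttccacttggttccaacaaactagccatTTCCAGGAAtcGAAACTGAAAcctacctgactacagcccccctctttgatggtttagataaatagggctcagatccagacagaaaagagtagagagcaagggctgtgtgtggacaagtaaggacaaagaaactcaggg
Igtp: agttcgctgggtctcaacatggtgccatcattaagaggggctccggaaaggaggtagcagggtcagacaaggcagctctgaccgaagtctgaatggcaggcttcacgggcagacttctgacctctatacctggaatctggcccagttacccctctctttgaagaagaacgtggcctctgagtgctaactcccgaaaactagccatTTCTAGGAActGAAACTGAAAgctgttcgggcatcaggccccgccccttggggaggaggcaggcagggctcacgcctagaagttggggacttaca
Gm12250: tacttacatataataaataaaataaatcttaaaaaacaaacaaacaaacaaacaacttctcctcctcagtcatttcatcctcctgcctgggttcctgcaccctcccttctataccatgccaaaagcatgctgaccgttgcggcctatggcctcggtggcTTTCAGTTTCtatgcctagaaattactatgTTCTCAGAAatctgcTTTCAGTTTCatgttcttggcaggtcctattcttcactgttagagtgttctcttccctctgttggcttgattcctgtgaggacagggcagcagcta
In Tgtp2, Tgtp1 and Igtp 2 bases lay between the GAS match and the ISRE match, and the ISRE match began 70, 77 and 34 bases before the start site. In Gm12250 a GAS match at 61 bases before the start lay between ISRE matches at 91 and 46 bases before it, both on the opposite strand. Tgtp1 and Tgtp2 are near-identical copies, so reads assigned to either are uncertain. The immunoproteasome gene Psmb8 (chr17:34197945-34198244, plus strand) is shown as a gene with a GAS match alone, 97 bases before its start.
Psmb8: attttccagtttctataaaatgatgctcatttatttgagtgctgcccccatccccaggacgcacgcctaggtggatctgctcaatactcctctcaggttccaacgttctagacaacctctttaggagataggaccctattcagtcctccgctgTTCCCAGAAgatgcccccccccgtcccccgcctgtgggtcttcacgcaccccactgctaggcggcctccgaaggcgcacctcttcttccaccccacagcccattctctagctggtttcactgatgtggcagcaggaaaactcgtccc
An ISRE match was present in 3.44% and a GAS match in 8.30% of 32851 promoters of this length in the RefSeq table. A match is a run of letters and not a measured binding site.

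Across the 14828 genes with a region, covered length was on the whole somewhat larger with IFN-γ. It was larger in 9217 genes (62.2%), smaller in 5327 (35.9%) and equal in 284. The median log2 ratio over the 13731 genes covered in both lists was 0.11 (quartiles -0.14 and 0.43), below the log2 ratio of 0.22 between the total lengths of the lists. By the rule above, 830 genes gained coverage (5.6%) and 253 lost it (1.71%). The balance of gains and losses depended on which regions were kept in the lists. When the narrowest IFN-γ regions were dropped until that list covered no more than the DMSO list, 555 genes gained and 901 lost, and the shares with more and with fewer base pairs became 49.4% and 48.7%. All 555 were among the 830, as they must be when regions are only removed from the IFN-γ list. The DMSO list kept its narrow regions in this setting, so total length and region width changed together. Without regions under 500 bp in either list, 1027 genes gained and 389 lost.

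**Figure D1:**
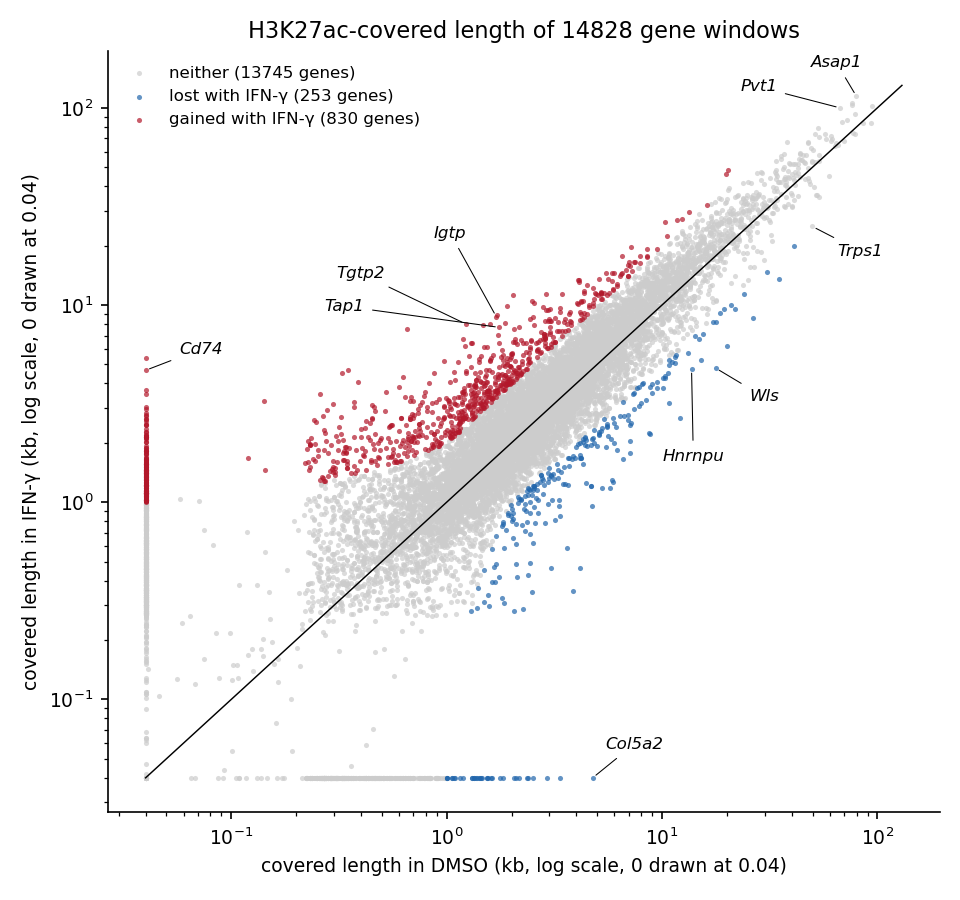
Covered length of each of 14828 gene windows with DMSO (x axis, kb) and with IFN-γ (y axis, kb), on log axes with a length of 0 drawn at 0.04 kb. Red points are the 830 genes that gained coverage, blue points the 253 that lost it, and the line marks equal lengths. Cd74 sits on the left edge with no DMSO region and 4664 bp with IFN-γ, and Col5a2 on the lower edge with 4764 bp with DMSO and none with IFN-γ.

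The gained genes were mostly genes with little coverage in DMSO, which a rule that asks for a 2-fold difference favours. Their median covered length was 1079 bp under DMSO, 2996.5 bp under IFN-γ and 1868 bp under curcuphenol, and 164 of them had no DMSO region at all. The start site lay in a region in both lists for 258 of the 830 (31.1%), with IFN-γ alone for 155, with DMSO alone for 7 and in neither for 410. Of the 13745 genes that passed neither rule, it lay in both for 8836 (64.3%) and in neither list for 3626. New regions with no DMSO counterpart held 51.0% of the base pairs covered with IFN-γ alone in these genes, and widening of existing regions held the other 49.0%. In the 13745 genes that passed neither rule, new regions held 32.7%. The genes were chosen on these same lengths, so these contrasts are not independent of the rule. The lost genes had wide coverage in DMSO, which the loss rule favours in turn. Their medians were 3252 bp under DMSO, 1235 bp under IFN-γ and 1630 bp under curcuphenol, and 35 of them had no IFN-γ region. Their start site was covered in both lists in 99 of 253 genes and with DMSO alone in 27. Regions that disappeared held 44.0% of their base pairs covered with DMSO alone.

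Averaged over the gained genes, coverage was larger with IFN-γ in every part of the gene body. This is a property of the mean and not of each gene. The gained genes had a median window of 33237.5 bp and a median gain of 1983.5 bp, so the gain usually took up a small part of the window. In the 805 gained genes with a body of 3000 bp or more, the mean covered share of the 1000 bp upstream was 21.5% with DMSO and 34.4% with IFN-γ. In the first 5% of the body it was 24.7% and 38.9%. Near the middle, from 45% to 50% of the body, it was 2.04% and 11.5%, and curcuphenol gave 5.84%. The lost genes showed the mirror pattern, from 37.5% to 23.7% upstream and from 5.44% to 1.61% near the middle. These profiles describe genes chosen on the same coverage.

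**Figure D2:**
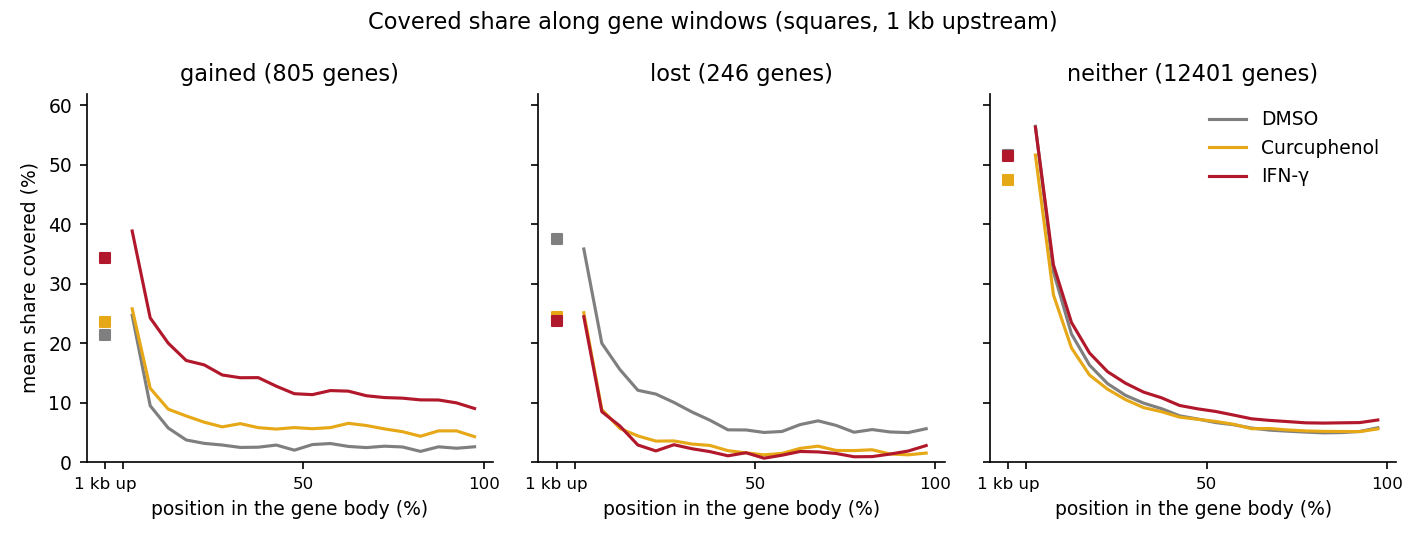
Mean covered share (y axis, %) in 20 equal bins of the gene body (x axis, % of the body from the start site) and, as squares, in the 1000 bp upstream, for gained, lost and other genes with bodies of 3000 bp or more. The IFN-γ line of the gained genes stays above the DMSO line along the whole body, 11.5% against 2.04% near the middle.

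Ranked by the share of the window, in windows of 3000 bp or more, the top gains were led by genes of the interferon response, some of which became covered from end to end. Of the 20 largest gains, 9 were on the lists of interferon response genes used below, all 20 passed the gain rule, and 3 reached 100%. Tgtp2 (chromosome 11, 49057196 to 49064212) had 15.3% of its window covered under DMSO, 100% under IFN-γ and 0 bp under curcuphenol. Tgtp1 went from 18.6% with DMSO to 100% with IFN-γ, and 477 bp of it were covered with curcuphenol. Igtp (chromosome 11, 58199556 to 58207592) went from 18.8% to 96.5%, and Gm12250 from 17.7% to 87.7%.

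These GTPases act on the vacuoles of intracellular parasites and bacteria. Genes of other kinds followed. Mpeg1, the gene of the pore-forming protein perforin-2, was covered over 874 bp under DMSO, 4519 bp under IFN-γ and 1785 bp under curcuphenol. Ubd, the gene of the ubiquitin-like modifier FAT10, had 2118 bp with IFN-γ and no region in the other lists. H2-T23, which encodes the non-classical class I molecule Qa-1, reached 100% of its window from 34.8%. The peptide transporter gene Tap1 reached 72.2% from 16.5%, and Psmb8 66.1% from 16.2%.

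Il18bp, which encodes a soluble inhibitor of interleukin 18, went from 37.9% to 87.9%, and Apol6, of the apolipoprotein L family, from 12.2% to 61.6%. The cytokine gene Lif was covered over 6475 bp under DMSO, 14329 bp under IFN-γ and 6460 bp under curcuphenol. The long non-coding genes Gm19723 and Gm19557, the predicted gene Gm45521 and the ribosomal protein gene Rps24 were also among the 20. Rps24 had 2463 bp under DMSO, 6664 bp under IFN-γ and 5496 bp under curcuphenol. On the list of ribosomal protein genes 1 of 20 gained (5.0%), near the 5.6% of all covered genes. Of these 20 genes 16 were longer and 3 shorter with IFN-γ.

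**Figure D3:**
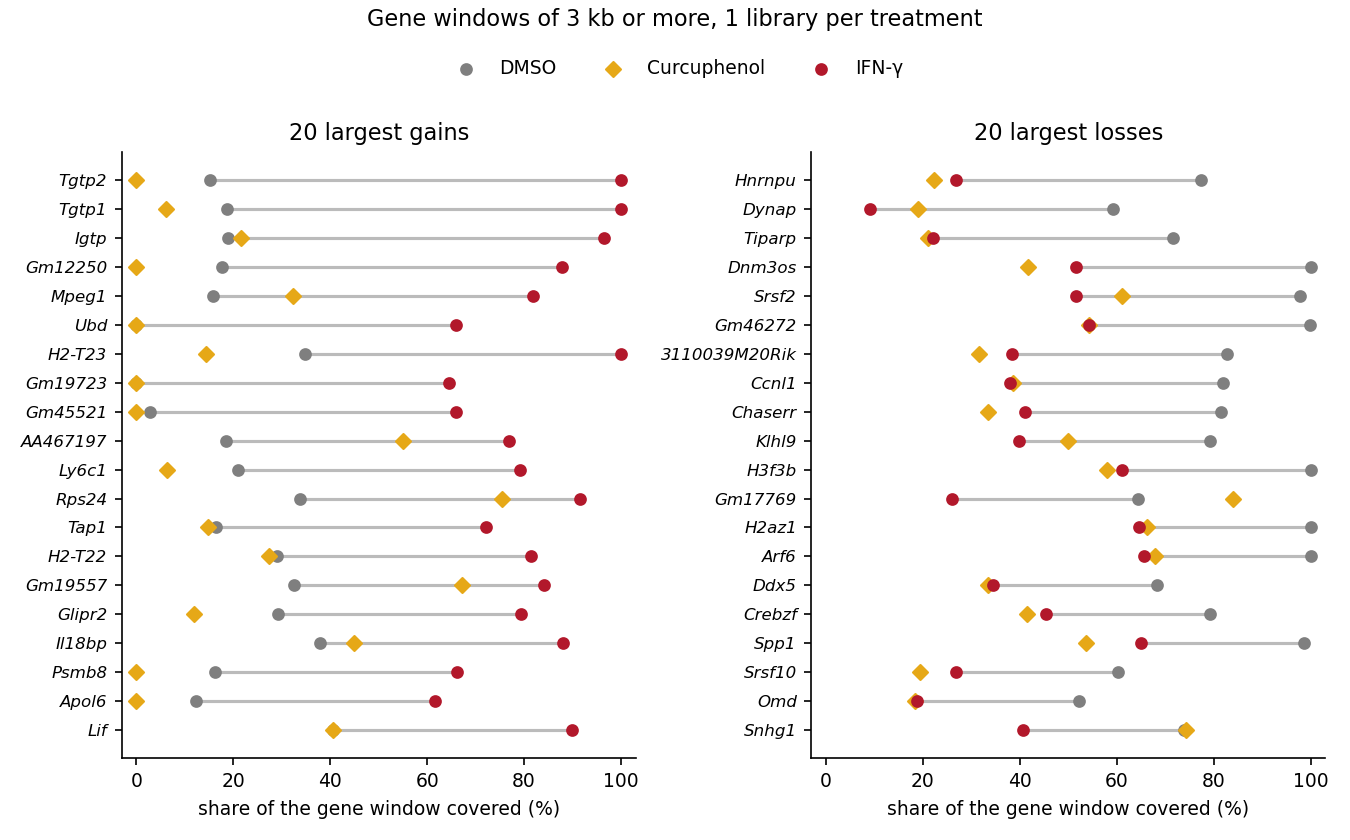
Share of the gene window covered (x axis, %) with DMSO (grey), curcuphenol (orange) and IFN-γ (red) for the 20 largest gains and 20 largest losses in windows of 3000 bp or more, with 1 library per treatment and a line from the DMSO to the IFN-γ value. Tgtp2, Tgtp1 and H2-T23 reach 100% with IFN-γ, and Hnrnpu has the largest loss, from 77.4% to 26.8%.

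The GTPase genes did not gain coverage one at a time. Around Igtp, separate DMSO regions of 1301 bp at Gm12250, 1700 bp at Igtp and 1799 bp at Irgm2 marked the promoters. With IFN-γ, regions of 5137 bp and 15618 bp ran with a short gap from before the Igtp start into Irgm2, and regions of 6341 bp and 5659 bp lay over Gm12250. The span of the 3 windows held 5180 covered bp under DMSO, 34645 bp under IFN-γ and 5146 bp under curcuphenol. Runs of at least 3 gained genes within 100 kb of each other numbered 15 and held 59 genes, and runs of lost genes numbered 2 and held 7.

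**Figure D4:**
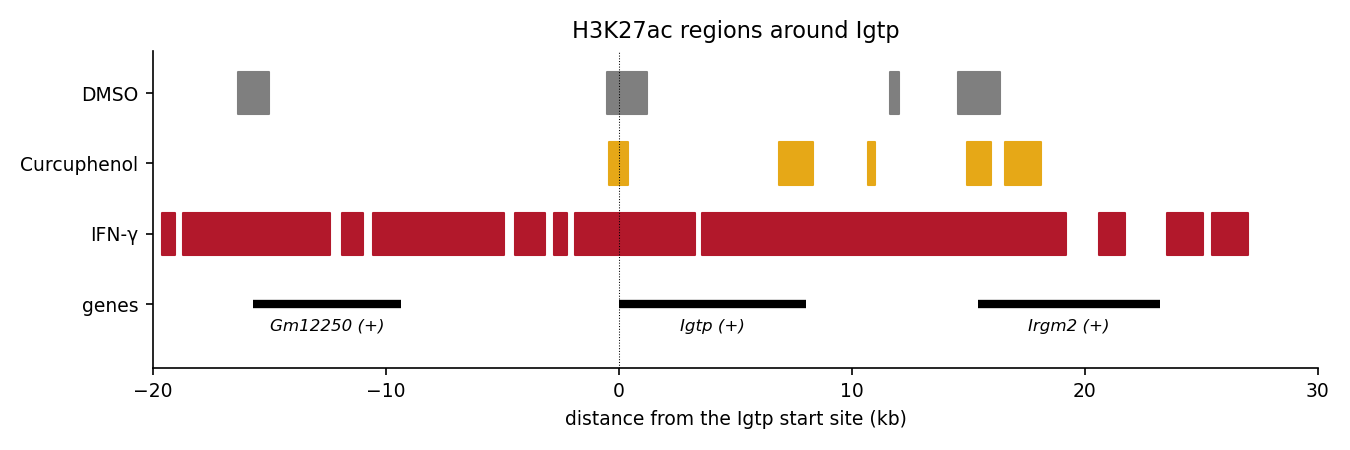
Called H3K27ac regions with DMSO, curcuphenol and IFN-γ around Igtp (x axis, distance from the Igtp start site in kb), with Gm12250, Igtp and Irgm2 as black bars, all on the plus strand. The DMSO region at Igtp spans 1700 bp and the 2 IFN-γ regions over the gene 5137 and 15618 bp.

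The run with the most genes lay in the MHC class II and antigen processing part of chromosome 17 (34152191 to 34316674). It held H2-DMb1, Psmb9, Tap1, Psmb8, Tap2, H2-Ab1, H2-Aa and H2-Eb1, which together with the sequence between them had 2907 bp covered under DMSO, 28595 bp under IFN-γ and 3217 bp under curcuphenol. The run on chromosome 3 with Gbp5, Gbp7, Gbp3, Gbp2b and Gbp2 had 11107 bp, 46011 bp and 6097 bp. The run on chromosome 11 with Tgtp1, Tgtp2 and Ifi47 had 25646 bp, 68596 bp and 11314 bp. Other runs held Slfn8, Slfn2 and Slfn1 (Schlafen genes), Oasl2 and Oasl1 (antiviral oligoadenylate synthetase-like genes), Iigp1, and Ciita with its neighbours. Neighbouring genes share regions and sometimes overlap, as did 269 of the 830 gained genes with another gene. Such overlap was more frequent among all covered genes, at 6748 genes (45.5%).

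In all, 30 lists of genes placed these values in known pathways, with all genes as the background (5.6% gained and 1.71% lost). Of these, 15 lists cover the interferon response. Of 208 genes on them with a region, 64 gained (30.8%) and 1 lost, with a median log2 ratio of 0.58. With the shortened IFN-γ list, 55 of 201 gained (27.4%) and 3 lost, against 3.87% gained and 6.28% lost of all genes. Of 197 covered genes on the other lists, 13 gained (6.60%) and 2 lost. The interferon lists therefore hold 64 of the 830 gained genes, and most gained genes are on none of the lists.

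Among the effectors, 8 of 11 guanylate-binding protein genes gained, with a median log2 ratio of 1.66. These GTPases coat and lyse pathogen vacuoles. Gbp7 went from 2038 bp with DMSO (1079 bp with curcuphenol) to 11176 bp with IFN-γ, and Gbp4 from 2906 bp (0 bp) to 11351 bp. Gbp11 went the other way, from 3554 bp to 2002 bp, and did not pass the loss rule. Of 9 covered immunity-related GTPase genes, 6 gained. Among 25 antiviral effector genes, 8 gained, among them Oasl2 (2531 bp under DMSO, 10296 bp under IFN-γ, 2736 bp under curcuphenol), Samhd1 (4318, 10499 and 3454 bp in the same order), Mx1, Mx2 and Oas2. Some interferon-stimulated genes were already covered over their whole window with DMSO and could not gain. Isg15, the gene of a ubiquitin-like modifier, had 2395 bp in each list, and Ifitm3, which blocks virus entry, had 2155 bp in each.

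Among receptors and signalling genes, the kinase gene Tyk2 (1436 bp under DMSO, 3816 bp under IFN-γ and 1264 bp under curcuphenol) and the type I interferon receptor gene Ifnar2 (1341, 3075 and 2229 bp in the same order) were among those that gained. The genes of the IFN-γ receptor itself differed less, with 1557 bp and 1329 bp for Ifngr1 and 5650 bp and 6699 bp for Ifngr2, DMSO first. Of 9 interferon regulatory factor genes 1 gained, Irf5, from no region to 1101 bp. Irf1, a transcription factor gene induced early by IFN-γ, had 8085 bp under DMSO, 9361 bp under IFN-γ and 1486 bp under curcuphenol. Irf2 had 17613, 33467 and 12274 bp and missed the ratio. The 9361 bp of Irf1 with IFN-γ were its whole window, so Irf1 could not reach the ratio. Of 15 feedback inhibitor genes 1 gained, the phosphatase gene Ptpn11. Socs1 was covered over its whole window of 2729 bp in each list and could not gain.

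Of the genes of antigen presentation, 4 of 13 MHC class I genes gained (H2-K1, H2-M3, H2-T22 and H2-T23) and all 13 were covered over a greater length with IFN-γ. For antigen processing, 5 of 15 gained, namely Tap1, Tap2, Psmb8, Psmb9 and Nlrc5. The MHC class II genes stood out in another way, since 6 of 10 had no DMSO region and gained at least 1000 bp. Cd74, the gene of the invariant chain, had no DMSO region, 4664 bp under IFN-γ and 826 bp under curcuphenol. Ciita, the gene of the class II transactivator, had 2261 bp with IFN-γ, H2-Aa 1347 bp, H2-Ab1 1038 bp, H2-DMb1 1225 bp and H2-Eb1 1408 bp, each with no region in the other lists. The median log2 ratio of this list, -0.02, covers only the 4 genes with a region in both lists.

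Markers of leukocytes, only some of which express MHC class II, were set beside this. Regions lay at 2 of 14 leukocyte marker genes, with 3.74 kb covered with DMSO and 3.46 kb with IFN-γ. Mesenchymal markers were covered at 13 of 14 genes and epithelial markers at 5 of 15, with the start site covered for 11 and for 0 of them in each list. The line is labelled only as A9, and its regions lay at mesenchymal rather than epithelial markers. Of 10 endothelial markers 7 had a region, with 0 covered at the start site. In bulk chromatin, a change in fewer cells and a smaller change in every cell cannot be told apart.

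Immune regulators also gained. Among checkpoint genes 4 of 11 gained, including Ido1, the gene of the tryptophan-degrading enzyme, with 1580 bp with IFN-γ and no region in the other lists, and Lgals9. Among chemokine and cytokine genes 5 of 17 gained. Cxcl11, a ligand of CXCR3, had 2168 bp with IFN-γ alone. Cxcl9, its neighbour and also a CXCR3 ligand, had 975 bp with IFN-γ alone and fell short of the rule. Cxcl10 had 2294 bp under DMSO, 3252 bp under IFN-γ and 2167 bp under curcuphenol. Its window is 3252 bp long, so it could not reach 2-fold. Il15 went from 5858 bp with DMSO (8105 bp with curcuphenol) to 14616 bp with IFN-γ, and Tnfsf10, the gene of the death ligand TRAIL, from 615 bp (0 bp) to 2661 bp. Ccl5 had 243 bp under DMSO, 2618 bp under IFN-γ and 4386 bp under curcuphenol.

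Apolipoprotein L genes gained in 4 of 6. Of 14 PARP and deltex genes 5 gained, with Parp14 from 3427 bp to 11368 bp, and Tiparp of that list lost. The TRIM and PML list shows the limit of the rule, with all 16 covered genes longer with IFN-γ and 1 gained, Trim14. Of the lists outside the interferon response, complement had the largest share gained, 4 of 7 genes (C1s1, C2, C3 and Cfb). On these other lists 2 of 11 AP-1 and 2 of 17 cell death genes gained. So did 1 each of 12 NF-κB, 22 TGF-β and BMP, 20 ribosomal protein, 13 mesenchymal and 7 endothelial genes. No gene gained among 17 WNT, 13 YAP and TEAD, 19 cell cycle, 12 housekeeping and 20 collagen and matrix genes.

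**Figure D5:**
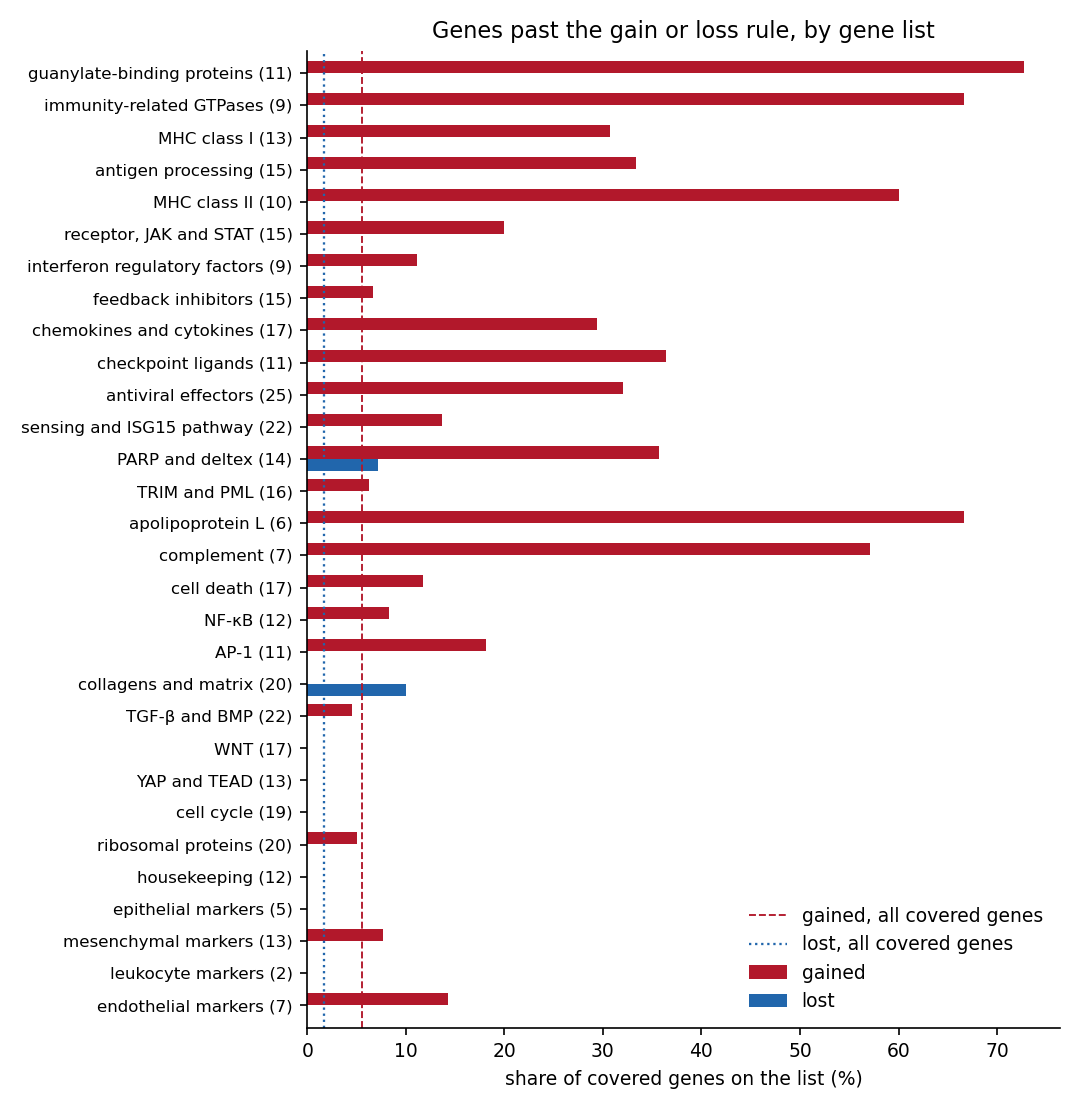
Share of the covered genes of each list (x axis, %) that gained (red) or lost (blue) coverage with IFN-γ, with the number of covered genes in brackets and the shares over all covered genes as dashed (5.6%) and dotted (1.71%) lines. Guanylate-binding proteins have the largest share, 8 of 11 genes, and collagens and PARP genes are the lists with any lost gene.

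Ranked by base pairs instead, the top gains were long genes and none of the 25 largest among protein-coding genes was on an interferon list. Their median window was 223853 bp, against 22874 bp for all covered genes, and 3 of the 25 passed the 2-fold rule. Asap1, the gene of an Arf GTPase-activating protein, had 79850 bp under DMSO, 114596 bp under IFN-γ and 50450 bp under curcuphenol. Frmd4a, a scaffold gene of cell polarity, had 76508, 105778 and 50330 bp in the same order, and Dlgap2 37862, 66819 and 47197 bp. The 3 that passed were Arhgef3, a guanine nucleotide exchange factor gene (20265, 48592 and 27723 bp), Smurf1, a ubiquitin ligase gene of the BMP pathway (19841, 46221 and 27986 bp), and Ntn1, the gene of the guidance cue netrin-1 (13291, 29651 and 5680 bp). The ratios of the 25 ran from 1.29 for Fndc3b to 2.40 for Arhgef3.

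Nuak2, a kinase gene of the AMPK family, had the longest coverage among genes with no DMSO region, 5413 bp with IFN-γ and none with curcuphenol. Cd74 was next. Plaat3, a phospholipase gene, had 3687 bp, Batf2, a leucine zipper transcription factor gene, 2837 bp, Slfn1 2499 bp and Apol10b 2462 bp, each with no curcuphenol region. In other genes of this group curcuphenol had a region of like or greater length, as in Jhy (3520 bp with IFN-γ and 3629 bp with curcuphenol) and Phactr2 (2956 bp and 8512 bp).

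The shares of long non-coding RNA and protein-coding genes that gained were near the 5.6% of all covered genes. Of 1493 covered long non-coding RNA genes 77 gained (5.16%) and 28 lost, and of 12896 protein-coding genes 741 gained (5.75%) and 220 lost. Pvt1, the non-coding neighbour of Myc, had 67129 bp under DMSO, 99923 bp under IFN-γ and 54484 bp under curcuphenol. Neat1, the RNA scaffold of paraspeckles, was covered over 68.3% of its window with DMSO and 94.2% with IFN-γ. AU020206 passed the rule, from 3005 bp to 8295 bp. Of 241 covered microRNA genes, 3 gained (1.25%) and 3 lost. Of 83 small nucleolar RNA genes 0 gained and 2 lost, and of 86 pseudogenes 8 gained (9.30%) and 0 lost. MicroRNA and small nucleolar RNA genes are short, and their windows are little longer than 1000 bp (1094 bp for Mirlet7a-1). Nearly a whole window must therefore change for such a gene to pass the rule, and their shares are not comparable with those of longer genes.

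By the rule above losses were fewer than gains, though not with the shortened IFN-γ list, and they lay in other kinds of genes. Ranked by base pairs, the largest were Trps1, a repressor with a GATA-type zinc finger (49836 bp under DMSO, 25038 bp under IFN-γ and 8765 bp under curcuphenol), Adgrl3, an adhesion receptor gene (34988, 13543 and 9959 bp), and Arhgap6 on chromosome X (41188, 19825 and 17932 bp). Of the 25 largest, 12 passed the rule and 4 lay on chromosome X. Sema3a, the gene of a repulsive guidance cue, went from 26473 bp with DMSO (6908 bp with curcuphenol) to 8543 bp, and Wls, which carries WNT proteins to the cell surface, from 17734 bp (5490 bp) to 4788 bp. These genes were chosen for long coverage in the DMSO library, with which the curcuphenol values share that baseline.

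Ranked by share of the window, the largest loss was that of Hnrnpu, the gene of an RNA-binding nuclear scaffold protein (chromosome 1, 178321108 to 178337815), which had 13709 bp under DMSO, 4738 bp under IFN-γ and 3936 bp under curcuphenol. The splicing factor genes Srsf2 (4103, 2165 and 2560 bp in the same order) and Srsf10 (8947, 3977 and 2863 bp), the cyclin L1 gene Ccnl1 and the RNA helicase gene Ddx5 were among the 20 largest. In the families of these genes, 1 of 10 covered Srsf genes (4 longer and 6 shorter) and 0 of 36 covered Ddx genes (21 longer and 15 shorter) passed the loss rule. Also among the 20 were the histone variant genes H3f3b (3544, 2162 and 2055 bp) and H2az1 (3436, 2216 and 2273 bp). The start sites of these 7 genes were covered in every list, and the length lost lay elsewhere in the window. Tiparp, an ADP-ribosyltransferase gene induced by the aryl hydrocarbon receptor, went from 71.6% to 22.1% of its window, and Spp1, the gene of osteopontin, from 98.6% to 64.9%. Of these 20 losses 8 passed the rule, since a covered window can shrink by over 30 points and stay above the ratio.

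Matrix genes were among the losses. Col3a1, the gene of type III collagen, had 12154 bp under DMSO, 2661 bp under IFN-γ and 2484 bp under curcuphenol. Col5a2, next to it on chromosome 1, had 4764 bp with DMSO and no region in the other lists, the longest among genes with no IFN-γ region. Aspn, Omd and Ogn, genes of small leucine-rich proteoglycans that bind collagen, formed a run on chromosome 13 with Cenpp, which spans them, and the run had 17743 bp under DMSO, 8233 bp under IFN-γ and 6604 bp under curcuphenol. The list of 20 collagen and matrix genes as a whole was even, with 10 genes longer and 10 shorter. Other genes with no IFN-γ region included the homeobox gene Meox2 (2164 bp with DMSO) and the zinc transporter gene Slc39a12 (2514 bp with DMSO and 4967 bp with curcuphenol).

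Chromosome X was the only chromosome with less covered length with IFN-γ than with DMSO, with a ratio of 0.883 between the lists. On the autosomes this ratio ran from 1.07 on chromosome 3 to 1.27 on chromosome 11. Of 473 covered X-linked genes 36 lost (7.61%, against 1.71% of all genes) and 15 gained. The curcuphenol list also covered less of X than the DMSO list, with a ratio of 0.829.

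Base composition moved with the direction of change. Sequence covered with DMSO alone in the lost genes had a GC content of 36.9%, against 48.9% for sequence covered in both lists in the same genes. Sequence covered with IFN-γ alone in the gained genes had 48.4%, against 51.0% for that covered in both lists. Over all genes the values were 39.7% for DMSO alone, 48.1% for IFN-γ alone and 50.4% for both. The part of base composition in the losses was not tested. Losses were also more frequent in long windows, at 0.432% of genes with windows up to 5000 bp and 7.58% of genes with windows over 200000 bp, while gains ran from 2.16% in the former to 7.64% between 50000 and 100000 bp.

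The interferon motifs were found at a larger share of the starts of gained genes than of all covered genes, and so were the letters of an AP-1 site. A promoter sequence was matched for 11283 of the 14828 genes. ISRE letters were found in 5.26% of gained, 2.54% of lost and 3.13% of all covered genes, and GAS letters in 8.61%, 4.57% and 7.03%. The letters TGANTCA of the AP-1 site, searched in the same way, were in 8.61% of gained, 8.63% of lost and 5.51% of all covered genes. The median GC content of these promoters was 58.0% for gained, 55.3% for lost and 60.3% for all covered genes. Of the 18 promoters matched among the 20 largest gains by share, 6 held the ISRE letters and 5 the GAS letters, and of the 18 matched among the 20 largest losses 1 and 0, at median GC contents of 50.7% and 63.0%. In the central 500 bp of regions, the ISRE letters were in 11.1% of 15886 regions found in IFN-γ and not in DMSO, 10.5% of 8588 found in DMSO and not in IFN-γ and 7.87% of 39736 IFN-γ regions that overlapped a DMSO region, at median GC contents of 46.8%, 39.8% and 47.4%. The GAS letters were in 14.8%, 18.8% and 14.7% of these regions in the same order, and so were most frequent in those found in DMSO and not in IFN-γ. The AP-1 letters were in 19.8%, 27.2% and 25.9%. A motif rich in A and T is met more often where GC content is low, so none of these shares, at promoters or in regions, are directly comparable.

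The rule has a sharp edge. Just inside it on the gain side lay Gfpt2 (616 bp under DMSO, 1616 bp under IFN-γ) and Rassf2 (926 and 1930 bp), and just outside it Men1 (301 and 1291 bp) and Milr1 (0 and 993 bp). On the loss side Golph3l (1004 and 0 bp) lay just inside and Dcstamp (1307 and 309 bp) just outside. A length of 1000 bp or more at any ratio was gained by 3183 genes and lost by 1000.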

How the data were processed

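A9 cells under 3 treatments gave 1 H3K27ac ChIPseq library and 1 input each. Paired reads were aligned by the authors to mm10 with BWA (version 0.7.17 in the submitters' processing notes, where the study's methods name an earlier version), and regions were called with MACS2 (version 2.1.2, FDR cutoff 0.01) against the input of the same treatment. The deposited lists give positions in bp and names, and no other values, so read depth and duplicate filters are unknown and intervals that need counts could not be given.

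Overlapping regions of a list were merged, and the covered base pairs of each gene window were counted with Python 3.11.15, numpy 2.4.6 and pandas 2.3.3. Windows span all curated transcripts of a gene (RefSeq annotation of GRCm38.p6, main chromosomes) plus 1000 bp upstream. The count was tested on simulated regions and matched a direct count. Genes with a region in either list were the background. Genes named were the 25 largest gains and losses in base pairs among protein-coding genes, 10 among other classes, 15 with no region in the other list, 20 by share in windows of 3000 bp or more, 5 on each side of the rule's edge, and members of 30 gene lists. List members named one by one, and genes with single values beyond these ranks, were picked with their values in view. The lists and ranks were chosen with earlier results of these data known. Of 236 symbols on the interferon lists 235 were found, all but Rigi, whose older symbol Ddx58 was listed too. With 1 library per treatment no test, p-value or error could be given. The values of some list members are not reported here. Alternatives changed the window, the annotation, the regions and the thresholds.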

Additional observations from a re-analysis of the deposited data

How the results depend on the processing

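The counts of gained and lost genes (830 and 253) moved with the choices made, while more genes had longer than shorter coverage with IFN-γ under each window, region and annotation choice tried, from 49.4% with the IFN-γ list shortened to the length of the DMSO list to 64.3% with 5000 bp upstream. Lost genes numbered 389 without regions under 500 bp, 901 with the shortened IFN-γ list (which removed regions from that list alone, 24107 of them) and 160 without genes whose windows overlap. In 2000 bp on either side of the start site, 265 genes gained and 111 lost. When a gene also had to pass against the curcuphenol list, 363 gained and 52 lost. At 500 bp and 1.5-fold the counts were 2527 and 959, and at 2000 bp and 3-fold 154 and 39. On the interferon lists the share gained ran from 17.3% at start sites to 32.7% with gaps of up to 1000 bp closed, against 2.05% and 6.60% of all genes.

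Of 136 named genes, none changed direction without regions under 500 bp, with the shortened list, with gaps closed, without the upstream part or with all RefSeq transcripts. With the shortened list only gains could have turned, since regions were removed from the IFN-γ list alone and losses could only grow. With 5000 bp upstream, H3f3b turned to a difference of 375 bp in favour of IFN-γ. In 2000 bp on either side of the start site, 73 of the 136 kept the same outcome under the rule. There 46 genes no longer passed it but did not turn, and 1 newly passed it. Around start sites 16 long or broad genes turned, with differences (IFN-γ minus DMSO) of -14 bp for Asap1, -51 for Rere, -99 for Ttc39b, -730 for Sik3 and -437 for Fndc3b, and of 79 bp for Adgrl3, 653 for Arhgap6, 139 for Sh3kbp1, 63 for Tiparp, 178 for Alcam, 236 for Vcl, 207 for Pdgfc, 275 for 4930511A08Rik, 296 for Ccnl1, 27 for Arf6 and 61 for Srsf10, in a window that leaves out part of the gene body. No paired analysis was possible because each treatment has 1 library. Without read counts, a region missing from a list cannot be told from one just under the calling threshold.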

Other observations

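All genes, on the lists or not, were grouped into families by symbol, with 8 or more covered members required. This gave 252 families, of which 140 held a gained gene and 49 a lost one. After the guanylate-binding proteins, the families with the largest shares gained were the Toll-like receptors and the Schlafen genes. Next came the Chst, Cpne and Cul families, each with 3 of 8 covered genes. These families are small, and the share gained over all covered genes was 5.6%. Of 8 covered Toll-like receptor genes 4 gained (Tlr5, Tlr7, Tlr12 and Tlr13), and the family had 9.78 kb covered with DMSO and 17.2 kb with IFN-γ. Toll-like receptors sense microbial molecules. Of 9 covered Schlafen genes 4 gained, Slfn1, Slfn2, Slfn8 and the pseudogene Slfn10-ps. The methyltransferase-like genes Mettl7a1, Mettl7a2 and Mettl7a3 and their neighbour Methig1 gained as a run on chromosome 15, with 450 bp covered under DMSO, 5767 bp under IFN-γ and 378 bp under curcuphenol.

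On the side of losses, the semaphorins, which encode guidance cues, had the largest share, 4 of 15 (Sema3a, Sema3c, Sema3d and Sema6d), against 1.71% of all covered genes. In the same family 2 genes gained (Sema4f and Sema5b, against 5.6% of all covered genes), and 8 were longer and 7 shorter with IFN-γ. Collagen genes lost in 4 of 31 (Col3a1, Col5a2 and the X-linked pair Col4a5 and Col4a6). The second run of lost genes, on chromosome 3, held the condensin gene Smc4 and, inside it, Mir15b and Mir16-2, with 11489 bp covered under DMSO, 5102 bp under IFN-γ and 3159 bp under curcuphenol. Their windows overlap, so the same lost sequence was counted for each of them.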
